A study of Mus musculus with 6 samples.

Results

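NF-kappaB is a family of transcription factors that switch on genes of inflammation, cytokine production and cell survival. Its subunits sit in the cytoplasm bound to inhibitor proteins until receptors for interleukin 1, tumour necrosis factor or microbial products activate kinases that mark the inhibitors for destruction. The freed subunits then induce, among many targets, their own inhibitors, so RNA of these inhibitors is commonly read as a sign of recent activity. The 10 genes described here were taken by exact symbol from a table of 23284 genes: the 5 subunit genes NFKB1, NFKB2, REL, RELA and RELB, the inhibitor genes NFKBIA, NFKBIZ and TNFAIP3, the survival gene BIRC3 and the adhesion gene ICAM1. All 10 passed the filter on low values, an average of 1 FPKM or more across the tumours, which 12586 genes passed.

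RNA was sequenced from 6 tumours that grew under the skin of athymic nude mice, which lack T cells, after injection of STS26T cells, a line from a human malignant peripheral nerve sheath tumour. Tumours grew for 1 week, to an average of about 100 mm3, before antibody injections into the peritoneum at 10 mg/kg, 2 times a week for 3 weeks. Mice of the anti-ENG group (3 tumours) received TRC105 with M1043, antibodies against human and mouse endoglin, a surface protein of blood vessel cells that takes part in TGF-beta signalling. Mice of the IgG control group (3 tumours) received control IgG. All tumours share the 1 cell line, and the sources used here do not give the age and sex of the mice. In the description codes, anti-ENG 1 and 2 share the number 21 and IgG control 2 and 3 share the number 5, each pair with 1 L and 1 R code. Whether such tumours came from 1 mouse is not stated, so p-values may measure only the spread between these samples.

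Values are FPKM, fragment counts scaled to transcript length and library size, and can therefore be compared between genes. Total depth is unknown. Relative depth, from the value of 1 fragment in low genes, was set to 1 in IgG control 1. It was 1.46, 1.23 and 1.14 in anti-ENG 1, 2 and 3 and 1.18 and 1.1 in IgG control 2 and 3. The nerve sheath markers SOX10, S100B and ERBB3 stayed under 1 FPKM in all tumours, while VIM, an intermediate filament of mesenchymal cells, had 1386 to 2182 FPKM. Of 10 leukocyte markers, 3 reached a mean of 1 FPKM (CD68, LYZ and CSF1R), MRC1 was listed at 0 in every tumour and PTPRC had at most 1.13 FPKM. Of 4 neutrophil markers CSF3R was listed at 0 throughout and FCGR3B stayed under 1 FPKM, while the sum of the list, nearly all S100A8 and S100A9, was 1.65, 5.38 and 109.8 FPKM in anti-ENG 1, 2 and 3 and 9.89, 60.5 and 207 FPKM in IgG control 1, 2 and 3. Of 6 endothelial markers, CDH5, VWF, KDR and CLDN5 stayed under 1 FPKM. The table holds human gene symbols and the sources used here do not say what was done with reads of the mouse host, so host cells may be counted in part or not at all.

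The first question was whether the NF-kappaB genes follow the cytokine level of each tumour. That level was expressed as a cytokine index, the mean of log2(FPKM + 1) over 13 genes of secreted inflammatory proteins that NF-kappaB is known to induce: IL1A, IL1B, IL6, LIF, CSF2, CSF3, IL8, CXCL1, CXCL2, CXCL3, CXCL5, CCL20 and TNF. The index was 3.55, 3.94 and 6.91 in anti-ENG 1, 2 and 3, against 7.57, 4.0 and 5.63 in IgG control 1, 2 and 3. The groups thus overlapped, with 1 high tumour in each arm and an intermediate one under IgG. IL6, an inflammatory cytokine, showed the spread, with 20.2, 20.7 and 609 FPKM in anti-ENG 1, 2 and 3 and 1269, 35.3 and 137 FPKM in IgG control 1, 2 and 3. Of the 13 genes, 11 were highest in IgG control 1 and 2, CSF2 and CXCL1, in anti-ENG 3. The index averaged 4.8 ± 1.84 in anti-ENG tumours and 5.74 ± 1.79 in IgG tumours (SD, n = 3 each), a difference of -0.94. An exact two-sided permutation test gave p = 0.5, where 0.1 is the smallest possible. Leaving out 1 tumour moved the difference to between -1.99 (anti-ENG 3 left out) and -0.018 (IgG control 1 left out).

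The high tumours of both arms, IgG control 1 and anti-ENG 3, are the tumours whose code number no other tumour shares. A part of the host animal in the index was not tested. IgG control 1 and anti-ENG 1, the highest and lowest by index, were also the extremes of the first principal component of all genes, which held 44.6% of the variance. The same tumours, IgG control 1 and anti-ENG 1, had the lowest and the highest relative depth. A part of depth in the index or in the slopes on it was not tested. The summed FPKM of the leukocyte markers, mostly CD68, was 75.5, 82.7 and 102 in anti-ENG 1, 2 and 3 and 122, 63.8 and 67.5 in IgG control 1, 2 and 3. This sum, like CD68 itself, was thus highest in the same tumours as the index. LYZ and CSF1R were also highest in IgG control 1, at 2.81 and 2.16 FPKM. PTPRC and ITGAM, both low, were instead highest in anti-ENG 2, at 1.13 and 0.65 FPKM. In IgG control 1 they had 0.34 and 0.35 FPKM. The sum of 5 fibroblast markers was 291, 657 and 793 FPKM in anti-ENG 1, 2 and 3 and 1314, 985 and 673 FPKM in IgG control 1, 2 and 3, also highest in IgG control 1. The part of either in the values below was not tested. In bulk RNA, fewer cells of a type and less RNA per cell cannot be told apart.

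Among the subunits, RELA was the most abundant and REL the least. RELA encodes the subunit that carries most transcriptional activation in the classical pathway. It had 113, 160 and 203 FPKM in anti-ENG 1, 2 and 3, against 210, 138 and 179 FPKM in IgG control 1, 2 and 3. NFKB1, whose precursor protein is processed into the DNA-binding partner of RELA, had 16.9, 23.4 and 37.7 FPKM in anti-ENG 1, 2 and 3, against 47.03, 21.3 and 28.2 FPKM in IgG control 1, 2 and 3. Both genes were highest in IgG control 1 and next in anti-ENG 3, and their groups overlapped.

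NFKB2 and RELB encode the partners of the alternative pathway, and both are known targets of the classical one. NFKB2 had 18.1, 18.2 and 41.1 FPKM in anti-ENG 1, 2 and 3, against 59.9, 20.9 and 26.1 FPKM in IgG control 1, 2 and 3. RELB had 13.1, 18.3 and 27.2 FPKM in anti-ENG 1, 2 and 3, against 32.4, 17.0 and 20.0 FPKM in IgG control 1, 2 and 3. The tumours of high index again led in each arm. REL, a subunit best known from lymphocytes, had 1.44, 1.86 and 2.00 FPKM in anti-ENG 1, 2 and 3, against 1.92, 1.98 and 2.2 FPKM in IgG control 1, 2 and 3. Its highest tumour was IgG control 3, and its highest value was 1.53 times its lowest.

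The feedback genes came next. NFKBIA encodes the inhibitor I-kappa-B alpha, which is destroyed on activation and made again when NF-kappaB induces its gene. It had 93.4, 97.0 and 207 FPKM in anti-ENG 1, 2 and 3, against 277, 84.5 and 122 FPKM in IgG control 1, 2 and 3. TNFAIP3 encodes a ubiquitin-editing enzyme that shuts off signalling below the receptors. It had 34.4, 25.6 and 88.1 FPKM in anti-ENG 1, 2 and 3, against 128, 31.5 and 54.3 FPKM in IgG control 1, 2 and 3, with the highest value 4.99 times the lowest. NFKBIZ encodes a nuclear member of the inhibitor family that acts as a co-activator of IL6 and other secondary genes. It had 11.5, 10.7 and 29.2 FPKM in anti-ENG 1, 2 and 3, against 44.9, 11.9 and 17.3 FPKM in IgG control 1, 2 and 3. In all 3 inhibitor genes the 4 other tumours lay below the 2 tumours of highest index.

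The other target genes differed in how far they spread. BIRC3, a ubiquitin ligase that blocks cell death below the tumour necrosis factor receptor, had 7.71, 11.1 and 14.2 FPKM in anti-ENG 1, 2 and 3, against 17.4, 6.71 and 11.6 FPKM in IgG control 1, 2 and 3. ICAM1, the surface ligand by which leukocytes attach to cells, had 31.3, 62.7 and 146 FPKM in anti-ENG 1, 2 and 3, against 199.8, 52.3 and 76.3 FPKM in IgG control 1, 2 and 3. The highest ICAM1 value was 6.39 times the lowest, the widest spread of the 10 genes.

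**Figure D1:**
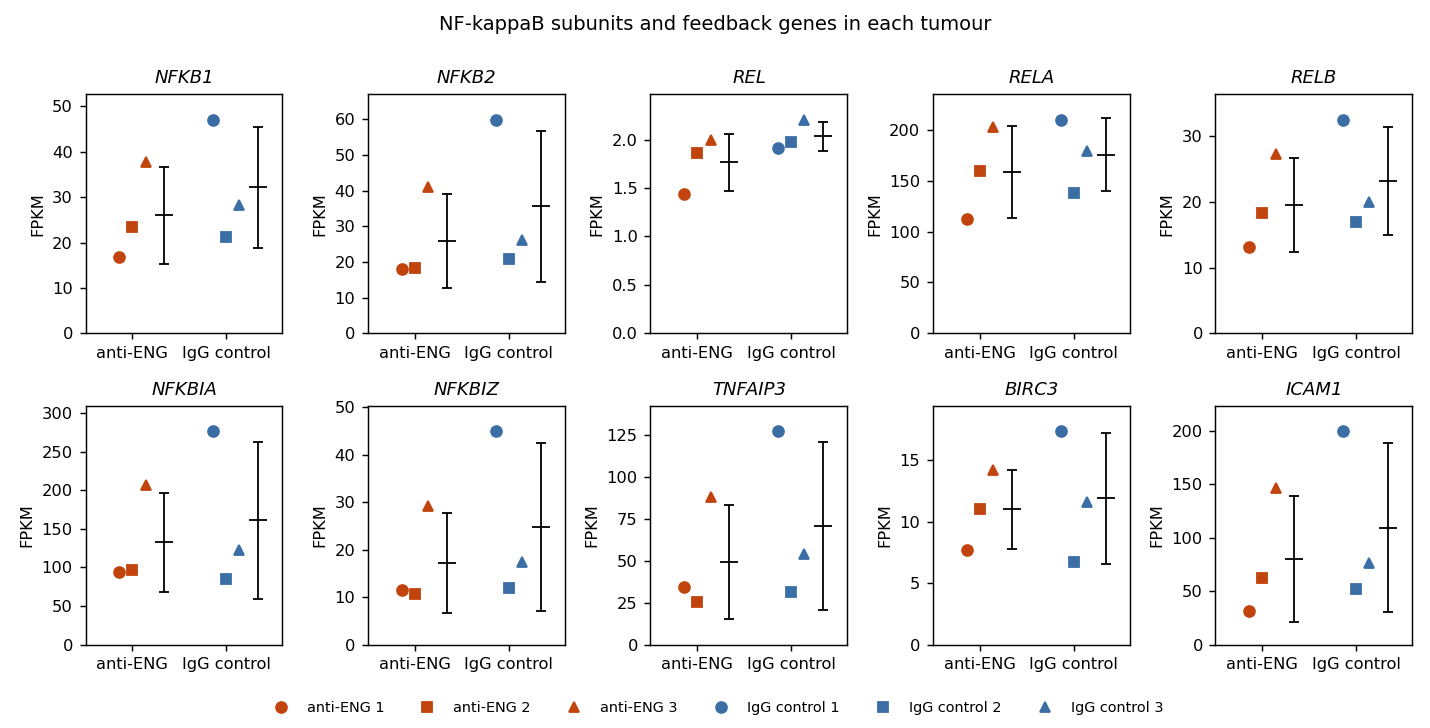
FPKM of each of the 10 genes in the 6 tumours, anti-ENG in red and IgG control in blue, with black bars for the mean ± SD of each group (n = 3 each). In 9 of the 10 genes IgG control 1 is the highest tumour, in all 10 anti-ENG 3 is second, and no gene has groups that lie apart.

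Within each arm the genes were ordered much as the index was. In the anti-ENG arm 8 of 10 genes followed the full order of the index (tumour 3, then 2, then 1), the exceptions being NFKBIZ and TNFAIP3, where tumours 1 and 2 changed places. In the IgG arm 9 of 10 followed it (tumour 1, then 3, then 2), the exception being REL. These counts are not of independent genes, since most of the 10 vary together, and no share over all genes is set beside them. The ratio between the tumours of highest and lowest index within an arm was largest for ICAM1 under anti-ENG, at 4.67, and for TNFAIP3 under IgG, at 4.05. For RELA these ratios were 1.80 under anti-ENG and 1.52 under IgG, and for REL they were 1.39 under anti-ENG and 0.969 under IgG.

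A fit of log2(FPKM + 1) on the index was then made over 12573 genes, those tested without the index genes. The slope was positive in 10 of 10 NF-kappaB genes and was called, at a limma adjusted p under 0.05, in 7: NFKB1, NFKB2, RELB, NFKBIA, NFKBIZ, TNFAIP3 and ICAM1. Of all genes tested, 1.07% were called with a positive slope. At an unadjusted p under 0.05 the count was 9 of 10 members, against 7.87% of all genes. The median slope was 0.35 over the 10 genes and -0.0052 over all genes. The index is on a log2 scale, so 1 unit is a doubling of the cytokine level, and a slope of 1 would mean that a gene rose in proportion to it.

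ICAM1 had the steepest slope, 0.55 (SE 0.065, limma adjusted p = 0.0090), or 1.46-fold for each unit of the index. TNFAIP3 had a slope of 0.51 (SE 0.054, limma adjusted p = 0.0062) and NFKBIZ one of 0.46 (SE 0.048, limma adjusted p = 0.0057). The values of NFKBIA were 0.39 (SE 0.050, limma adjusted p = 0.011). The feedback genes thus rose with the index by 1.31- to 1.43-fold per unit.

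Among the subunits NFKB2 had the steepest slope, 0.39 (SE 0.044, limma adjusted p = 0.0081). NFKB1 had 0.30 (SE 0.040, limma adjusted p = 0.013) and RELB 0.25 (SE 0.042, limma adjusted p = 0.034). RELA did not pass, with a slope of 0.18 (SE 0.047, limma adjusted p = 0.144), nor did BIRC3, with 0.25 (SE 0.055, limma adjusted p = 0.094). REL had a slope of 0.039 (SE 0.054, limma adjusted p = 0.806), and at its low level the added 1 FPKM understates changes. With 0.1 FPKM added its slope was 0.057.

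**Figure D2:**
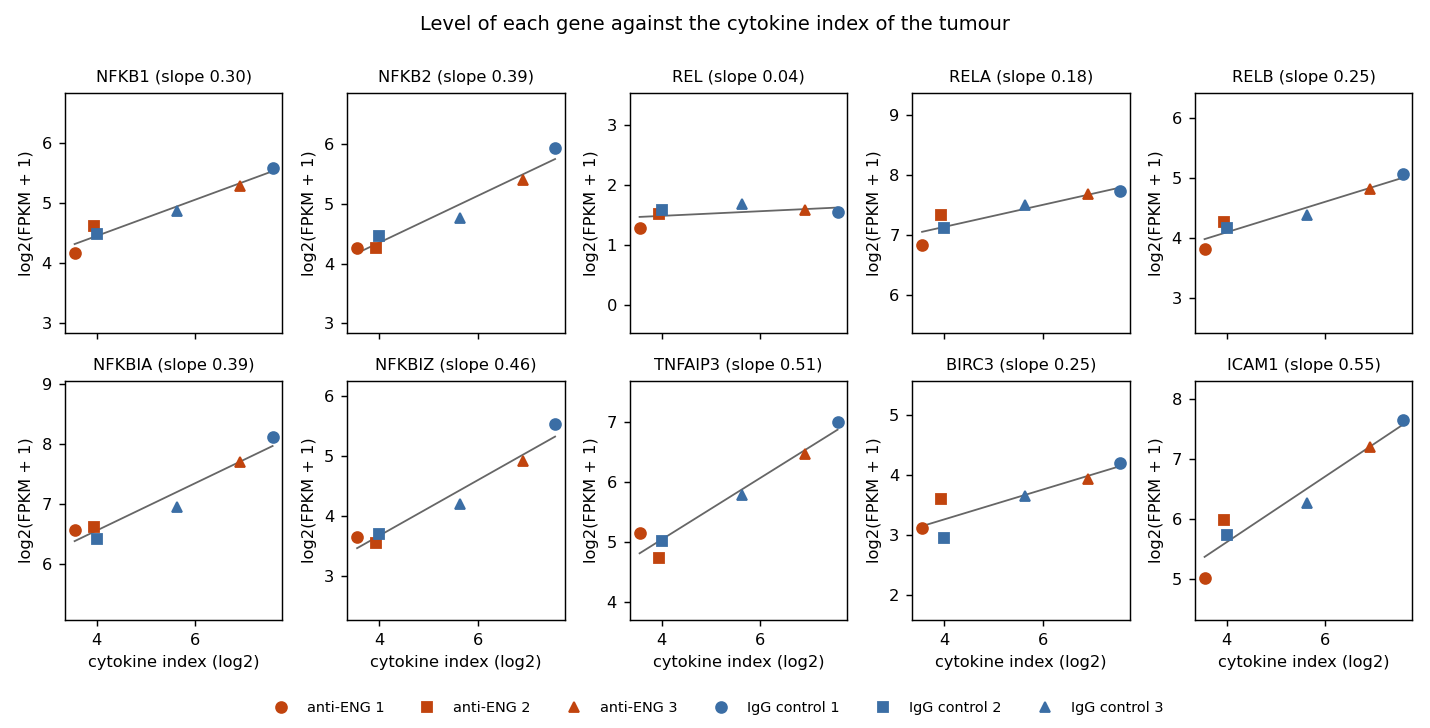
Level of each gene, as log2(FPKM + 1), against the cytokine index of the tumour, with the fitted line; every panel spans 4 log2 units, anti-ENG tumours are red and IgG control tumours blue. Tumours of both arms lie near 1 line in most panels, and the slopes run from 0.04 for REL to 0.55 for ICAM1.

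**Figure D3:**
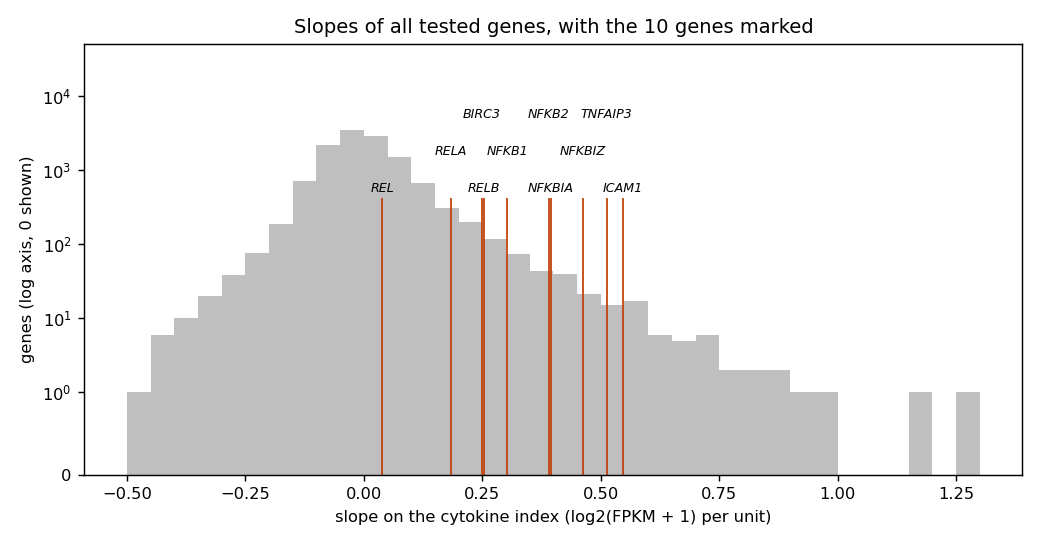
Number of genes by slope on the cytokine index for all 12573 genes tested, in bins of 0.05 with a log axis that also shows 0, and the 10 NF-kappaB genes as red lines. REL, at 0.04, lies in the bulk of all genes, while the other 9 lie in the right tail between 0.18 and 0.55.

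The calls leaned on IgG control 1. Without that tumour 0 of the 10 genes were called by limma, and of all genes 33 were called, against 140 with every tumour. At an unadjusted p under 0.05 there were 9 members, against 963 of 12573 genes with a slope of either sign. The slopes of the 7 called genes then ran from 0.23 to 0.52, with adjusted p-values from 0.058 to 0.305. Without anti-ENG 3 the genes NFKB2, NFKBIZ, TNFAIP3 and ICAM1 were called, 4 in all. Of 12573 genes, 63 were then called, with a slope of either sign. Without both tumours 0 were called, in a fit of 4 tumours that called 0 of all genes. At an unadjusted p under 0.05 this fit had 5 members, against 441 of 12573 genes with a slope of either sign. There NFKBIA had a slope of 0.21, NFKB2 of 0.24 and NFKBIZ of 0.30, each lower than with all tumours by more than 1.5 times, REL had 0.15, and all 10 slopes were positive.

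The index is itself built of NF-kappaB targets. Its make-up was varied, but every version still held only such targets. These fits thus do not set the genes against an index free of NF-kappaB targets. With IL6 alone as the index the same 7 genes were called, as they were without IL1A, IL1B and TNF. Of 12573 genes, 137 and 125 were called in these fits, with a slope of either sign. With the chemokine genes alone 6 members were called, RELB being lost, against 108 of all genes. With IL1B alone 3 members were called, NFKB2, NFKBIZ and TNFAIP3, against 102 of all genes. The slopes of NFKB1, RELB, NFKBIA and ICAM1 on IL1B had limma adjusted p-values from 0.051 to 0.096.

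Pearson and Spearman correlations of log2(FPKM + 1) with the index were computed over the 6 tumours, 10 relations for each measure. Their p-values come from exact permutation of all 720 pairings, are unadjusted, and assume independent tumours. NFKB2 had r = 0.975 (p = 0.00139) and a Spearman rho of 1 (p = 0.00278). The other called genes had r from 0.957 to 0.977 (exact permutation p from 0.00278 to 0.00694) and rho from 0.829 to 0.943 (p from 0.0167 to 0.0583). RELA had r = 0.911 (exact permutation p = 0.0111) and rho = 0.943 (p = 0.0167), and BIRC3 r = 0.893 (p = 0.0236) and rho = 0.829 (p = 0.0583). REL had r = 0.50 (exact permutation p = 0.35) and rho = 0.6 (p = 0.242). Without IgG control 1 and anti-ENG 3, the tumours farthest from the median index, r over the other 4 tumours ran from 0.631 for BIRC3 to 0.954 for NFKB2, with 0.811 for REL.

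The slope was also read at equal treatment, from a fit with the index and treatment together. It was called in 6 of 10 members, against 0.644% of all genes with a positive slope, and at an unadjusted p under 0.05 in 9 of 10, against 6.84%. The genes called were NFKB1, NFKB2, NFKBIA, NFKBIZ, TNFAIP3 and ICAM1. TNFAIP3 had a slope of 0.51 (SE 0.059, limma adjusted p = 0.023) and ICAM1 one of 0.55 (SE 0.072, limma adjusted p = 0.033). RELB, called without treatment in the fit, had 0.25 (SE 0.045, limma adjusted p = 0.082). Leaving out IgG control 1, IgG control 2 or anti-ENG 3 ended all 6 calls. At an unadjusted p under 0.05 there were then 9, 9 and 8 members. Of 12573 genes, 1091, 801 and 681 passed that limit, with a slope of either sign. Testing genes with no filter on low values also ended all 6 calls. There 9 members had an unadjusted p under 0.05, against 1735 of 18901 genes.

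The second question was whether anti-ENG tumours differed from IgG tumours in these genes. By limma 0 of 10 genes were called, as were 0% of all genes tested. At an unadjusted p under 0.05 there were 0 members, against 9.17% of all genes. The groups lay apart in 0 of 10 genes, against 17.3% of all genes. All 10 estimates were below 0, with a median log2 fold change of -0.27, where the median over all genes was 0.0065. The 10 genes vary together across tumours, so their signs are not independent.

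TNFAIP3 averaged 49.4 ± 33.8 FPKM in anti-ENG tumours and 71.1 ± 50.2 FPKM in IgG tumours (SD, n = 3 each), which is -0.49 on the log2 scale (SE 0.58, limma adjusted p = 0.766). ICAM1 averaged 80.1 ± 59.4 FPKM in anti-ENG tumours and 109 ± 79.1 FPKM in IgG tumours (SD, n = 3 each), which is -0.48 on the log2 scale (SE 0.63, limma adjusted p = 0.783). NFKBIA averaged 132 ± 64.6 FPKM in anti-ENG tumours and 161 ± 102 FPKM in IgG tumours (SD, n = 3 each), which is -0.20 on the log2 scale (SE 0.47, limma adjusted p = 0.881). In each of these the standard error was larger than the difference.

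Among the subunits the standard errors were likewise larger than the differences. RELA averaged 159 ± 45.2 FPKM in anti-ENG tumours and 176 ± 36.2 FPKM in IgG tumours (SD, n = 3 each), which is -0.17 on the log2 scale (SE 0.24, limma adjusted p = 0.808). NFKB1 had a log2 fold change of -0.30 (SE 0.35), NFKB2 of -0.41 (SE 0.44), RELB of -0.24 (SE 0.30) and REL of -0.14 (SE 0.16). NFKBIZ had -0.43 (SE 0.52) and BIRC3 -0.054 (SE 0.33). Limma adjusted p-values of these 6 genes ran from 0.739 to 0.960. The signs depended on which tumours were kept. Without IgG control 1 the estimate was above 0 in 8 of 10 genes, from 0.0079 for NFKB1 to 0.28 for NFKBIA. That fit still held anti-ENG 3, the high tumour of the other arm. Without anti-ENG 1 the estimate was above 0 in 4 genes. Without both IgG control 1 and anti-ENG 3 it was above 0 in 1, BIRC3, and below 0 in the others.

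At equal index the treatment estimates were near 0, with a median of 0.00078 over the 10 genes and 5 of them below 0. The index was measured after treatment and is built of targets of the same pathway. This fit therefore takes out any treatment difference that the genes share with the index, and cannot show whether there was one. By limma 0 members were called, as were 0% of all genes, and 0 had an unadjusted p under 0.05, against 7.52% of all genes. The log2 fold change was then -0.0084 for TNFAIP3 (SE 0.18, limma adjusted p = 0.989) and 0.032 for ICAM1 (SE 0.22, limma adjusted p = 0.968). The largest were those of BIRC3, 0.20 (SE 0.17, limma adjusted p = 0.726), and NFKBIA, 0.19 (SE 0.15, limma adjusted p = 0.708).

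**Figure D4:**
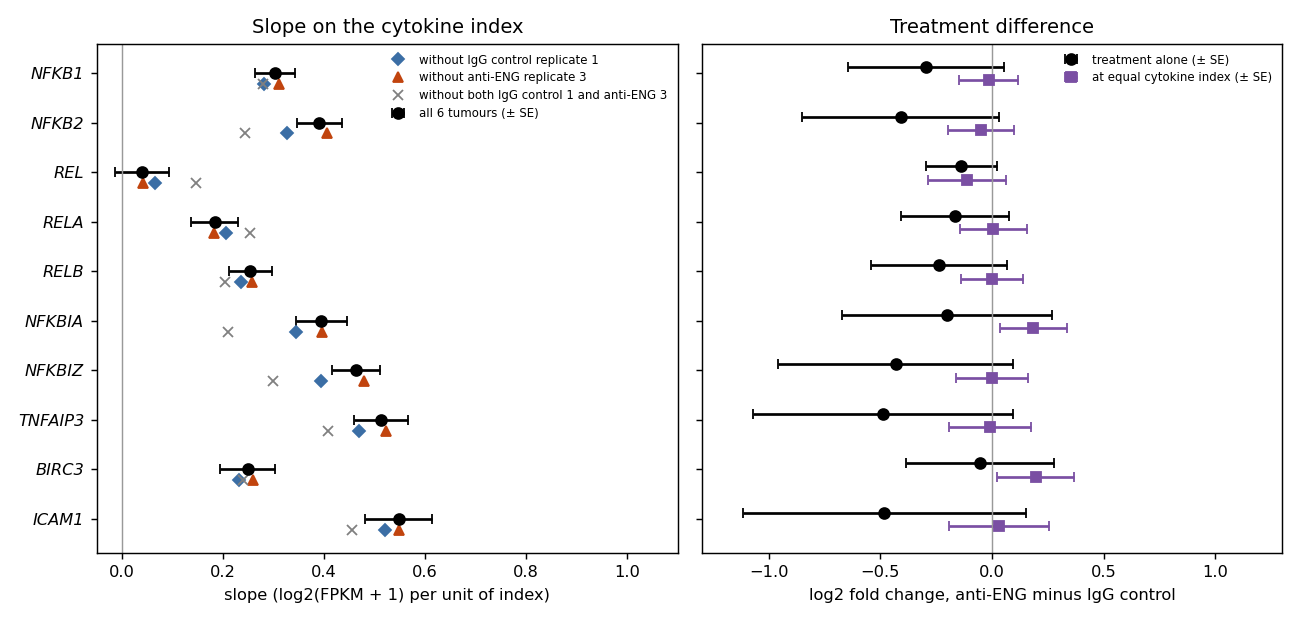
Left, the slope of each gene on the cytokine index with all 6 tumours (black, ± SE) and with 1 or both tumours of high index left out; right, the log2 fold change of anti-ENG minus IgG control from treatment alone (black) and at equal index (purple), ± SE. All slopes shown stay above 0, and the treatment estimates move to between -0.11 and 0.20 at equal index.

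Other genes of the pathway were read from the same fits. The share over all genes to set beside the list counts is the 1.07% called with a positive slope on the index. Of 22 receptors and adaptors tested, 1 was called with a positive slope on the index and 0 with a negative one, with a median slope of 0.047. It was TLR2, the receptor for bacterial lipoproteins, with a slope of 0.23 (SE 0.041, limma adjusted p = 0.048). IRAK2, a kinase that relays interleukin 1 signals, had 0.23, the co-stimulatory receptor gene CD40 had 0.20 and the tumour necrosis factor receptor gene TNFRSF1B had 0.35, with limma adjusted p-values from 0.074 to 0.078. Of 11 kinases 1 was called, with a median slope of 0.033: MAP3K8, which links this pathway to ERK, at 0.33 (SE 0.056, limma adjusted p = 0.039). IKBKE had 0.21, IKBKG, the regulatory subunit of the I-kappa-B kinase complex, had 0.077, and MAP3K14, the kinase of the alternative pathway, had -0.13, with limma adjusted p-values from 0.094 to 0.499.

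Of 17 further inhibitors tested, of 18 listed, 4 were called with a positive slope and 0 with a negative one, with a median of 0.075. ZC3H12A, an RNase that degrades cytokine messages including IL6, had 0.69 (SE 0.035, limma adjusted p = 0.00038). It had 8.35, 11.1 and 46.6 FPKM in anti-ENG 1, 2 and 3, against 67.2, 11.5 and 27.9 FPKM in IgG control 1, 2 and 3. This is the order of the index in every tumour. IRAK3, an inhibitory relative of the interleukin 1 receptor kinases, had a slope of 0.47, TNIP1, the partner protein of the TNFAIP3 enzyme, had 0.33, and TRAF1 had 0.28.

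Of 19 further target genes tested, of 20 listed, 8 were called with a positive slope and 0 with a negative one, all 19 slopes were positive, and the median was 0.45. TNFAIP6, a secreted hyaluronan-binding protein, had a slope of 0.91 (SE 0.075, limma adjusted p = 0.0020). SOD2, the mitochondrial superoxide dismutase, had 0.57 (SE 0.042, limma adjusted p = 0.0013), complement factor B (CFB) had 0.63 and syndecan 4 (SDC4) had 0.45. The others called were IER3, BCL2A1, TNFAIP2 and GCH1. Between treatment groups 0 genes of these 4 lists were called by limma, with 2, 0, 1 and 1 at an unadjusted p under 0.05 in the receptor, kinase, inhibitor and target lists, and groups lay apart in 3, 1, 1 and 0, of 22, 11, 17 and 19 genes tested. Over all genes these shares were 9.17% at an unadjusted p under 0.05 and 17.3% with groups apart.

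Over the 6 tumours, the genes most like NFKBIA among 8081 genes outside these lists with a mean of at least 5 FPKM were TBC1D9 (r = 0.997), the lipid transporter gene MFSD2A (0.995) and WTAP (0.993), a subunit of the RNA methyltransferase complex. MFSD2A had 5.28, 5.84 and 11.7 FPKM in anti-ENG 1, 2 and 3, against 17.4, 5.21 and 7.33 FPKM in IgG control 1, 2 and 3. The genes most like TNFAIP3 were JAK2 (r = 0.999), a kinase of cytokine receptors, DNER (0.993) and the transporter gene SLC43A3 (0.992). JAK2 had 13.9, 12.2 and 20.6 FPKM in anti-ENG 1, 2 and 3, against 24.1, 13.6 and 17.2 FPKM in IgG control 1, 2 and 3. These likenesses are descriptions, picked as the highest of many over few tumours that share 1 cell line.

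Among the 10 genes themselves, correlations over the 6 tumours ran highest between RELB and ICAM1 (r = 0.999) and between NFKB2 and NFKBIZ (0.997). RELA was closer to ICAM1 (0.959) and NFKB1 (0.955) than to TNFAIP3 (0.790). REL had its highest value with RELA (0.714) and its lowest with NFKBIA (0.290). All are descriptions over the same 6 tumours and share their libraries.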

How the data were processed

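FPKM values were used as deposited by the authors, 1 column per tumour. Per the submitters' processing notes, the tools named are Cuffnorm and Cufflinks (version 2.2.1), TopHat2 (version 2.0.10) with Bowtie (version 1.0.0), SAMtools (version 0.1.1.9) and FastQC (version 0.10.1), and the build is GRCh37 (hg19). Nothing used here states the Cuffnorm scaling, the use of strand, the annotation or the handling of mouse reads. The labels' protocols describe selection of polyadenylated RNA, and a pair of library kits and of instruments is named without saying which served which sample. Any such difference between groups cannot be told apart from treatment.

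Groups and replicate numbers came from the sample titles. Tests used limma 3.58.1 in R 4.3.3 across all genes on log2(FPKM + 1), with a variance trend, a minimum mean of 1 FPKM, two-sided p-values and Benjamini-Hochberg adjustment over all genes tested, at a threshold of 0.05. Models held treatment, the cytokine index, or both. The index took the listed cytokine genes that averaged 1 FPKM or more, 13 of 14, CXCL6 being left out. The limma steps were tested on simulated data. Every member is named. From each pathway list up to 4 genes of smallest unadjusted p for the slope are named, and the other target genes called were named after their values were seen. For NFKBIA and TNFAIP3 the 3 genes of highest r are named. The members and lists were chosen with earlier results of these data known. Alternatives covered the pseudocount, filter, scaling, variance model, sample weights, blocks by replicate number, code numbers averaged, the make-up of the index and leaving out tumours. Leaving out both IgG control 1 and anti-ENG 3 was added after seeing the data. No sequences are shown, because a human reference was not used here. The result of 1 marker gene is not reported here.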

Additional observations from a re-analysis of the deposited data

How the results depend on the processing

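With 3 tumours a group and unknown depth, precision was limited by the number of tumours. Treatment calls from treatment alone were 0 among members and all genes under every alternative run. Calls on the index among members were 7, and 6 to 8 under the alternatives except 3 with IL1B alone as the index, 4 without anti-ENG 3, and 0 without IgG control 1 or without both IgG control 1 and anti-ENG 3. Over the fits that left out 1 tumour they ran from 0 to 8. Calls among all genes were 140, with 55 when genes were not filtered, 0 without both tumours, and 33 to 121 when 1 tumour was left out. Within arms the 6 member calls became 0 with no filter and 0 without both tumours, and ran from 0 to 8 with 1 tumour left out. Of the called genes, RELB most often lost its call. The cause was not tested.

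No label used here says that tumours of 1 replicate number were paired. Correlations of their deviations from the group means were -0.329, 0.194 and 0.0371. With the replicate block the calls on the index were 442 among all genes and 7 among members. The correlations include no tumours of unlike number, so they do not show which tumours were closest.

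Treatment estimates were not called, and in 9 of 10 genes changed sign under some alternative, REL staying below 0 under all that were run. With sample weights they were 0.020 for NFKB1, 0.033 for RELA, 0.037 for RELB, 0.20 for NFKBIA, 0.0030 for NFKBIZ, 0.24 for BIRC3 and 0.11 for ICAM1, and BIRC3 was 0.056 without both high tumours. With 1 tumour left out they ran from -0.59 to 0.0079 for NFKB1, from -0.79 to 0.031 for NFKB2, from -0.36 to 0.058 for RELA, from -0.50 to 0.024 for RELB, from -0.57 to 0.28 for NFKBIA, from -0.87 to 0.10 for NFKBIZ, from -1.0 to 0.046 for TNFAIP3, from -0.38 to 0.25 for BIRC3 and from -1.05 to 0.066 for ICAM1. The slope of REL within arms ran from -0.0031 to 0.064 with 1 tumour left out and was 0.093 without both high tumours.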
